A study of Mus musculus with 6 samples.

Results

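The genes examined here encode 5 proteins of the sarcolemma, the excitable membrane of the muscle fiber: *Scn4a*, *Scn4b*, *Clcn1*, *Atp1b1* and *Fxyd1*. They were taken by name, through their Ensembl identifiers in GENCODE release M21, from a count table of 56262 genes, and all 5 were found. RNA-seq had been carried out on leg muscle of mouse fetuses at embryonic day 18.5, with 3 wild-type (WT) samples and 3 *SYISL* KO samples. *SYISL* is a long noncoding RNA whose locus lies over an intron of *Synpo2*, and the KO line had been made in earlier work of the same group. Parents of each mating had the same genotype, so the genotype of the fetus and that of its mother cannot be told apart in these samples. No treatment was given, and strain, sex, litter and the number of fetuses behind a sample are not stated in the sources used here. P-values therefore measure the spread between these samples, which may be technical in part.

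Skeletal muscle fibers fire action potentials through the voltage-gated sodium channel Nav1.4, whose pore-forming alpha subunit is the product of *Scn4a*. Beta subunits such as the product of *Scn4b* attach to sodium channels and tune their gating. The resting membrane of mature fibers is dominated by the chloride conductance of ClC-1, encoded by *Clcn1*, and its loss causes myotonia, in which fibers keep firing after a stimulus. The sodium and potassium gradients are restored by the Na,K-ATPase, a pump built of an alpha subunit that carries the ions and a beta subunit (*Atp1b1* among them) that brings it to the membrane. *Fxyd1* encodes phospholemman, a small membrane protein that lowers the pump's sodium affinity until it is phosphorylated. In rodent muscle, ClC-1 and Nav1.4 are known to increase around birth as fibers mature.

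*Scn4a*, *Scn4b*, *Clcn1* and *Fxyd1* were higher in KO than in WT muscle, by 1.68-fold, 2.23-fold, 2.08-fold and 2.23-fold, and no KO value of these 4 genes overlapped a WT value. *Atp1b1* did not pass the test (0.942-fold), and its WT and KO values overlapped. A gene was called when its Benjamini-Hochberg adjusted p in the quasi-likelihood test of edgeR was under 0.05 and its fold change over 1.5. By this rule 4 of the 5 genes were called higher, where 16.7% of all 22071 genes tested were called, 8.31% higher and 8.39% lower, and 45.0% had an adjusted p under 0.05 at any fold. All directions are relative to the RNA of the whole sample. Scaling to muscle fiber markers, given further on, turned the direction of *Scn4a* (log2 fold change -0.31). It left little difference for *Scn4b* (0.10), *Clcn1* (-0.0081) and *Fxyd1* (0.099), and none of these 4 genes was then called. Levels are given in CPM, from TMM-scaled library totals, changes as log2FC, the log2 fold change of KO over WT, and the libraries held 82054811 to 102233181 counts. A WT and a KO group without overlap was common over all genes tested, at 55.9%, so the absence of overlap alone says little. As the RNA came from whole muscle, more cells of a type and more RNA per cell cannot be told apart.

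**Figure D1:**
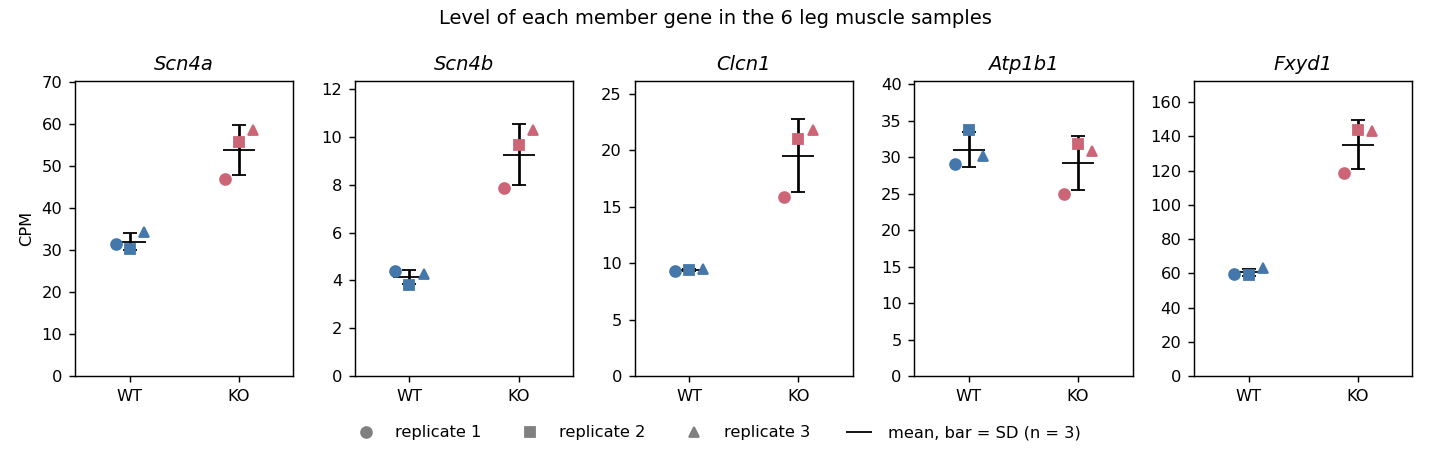
Level in CPM (y axis, from 0, a separate scale per gene) of the 5 genes in the WT and KO samples (x axis). Points are single samples, with a marker shape for each replicate, and bars show the mean and SD (n = 3). *Scn4a*, *Scn4b*, *Clcn1* and *Fxyd1* lie higher in all 3 KO samples, KO replicate 1 being the lowest of these, while *Atp1b1* spans 29.1 to 33.7 CPM in WT and 25.0 to 31.8 CPM in KO.

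*Scn4a* (ENSMUSG00000001027.7) is a gene of chromosome 11 (mm10, 106318592 to 106353288, minus strand). The WT replicates 1, 2 and 3 held 2987, 2495 and 3619 *Scn4a* counts, and the KO replicates 1, 2 and 3 held 4408, 5312 and 5695. On the CPM scale this gave 31.6, 30.2 and 34.3 for WT against 47.0, 55.7 and 58.5 for KO. KO replicate 1 was the lowest KO sample and still lay above every WT sample. WT samples averaged 32.0 ± 2.08 CPM and KO samples 53.8 ± 6.004 CPM (SD, n = 3 each), and the log2FC was 0.75 (SE 0.080, 95% interval 0.57 to 0.93, adjusted p = 6.04e-05). This was the smallest rise of the 4 genes called, although 93.6% of all genes tested had a log2FC no larger than that of *Scn4a*.

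*Scn4b* (ENSMUSG00000046480.6, plus strand of chromosome 9, 45138395 to 45154152) was the least abundant of the 5 genes. Counts of 414, 314 and 449 for WT stood against 736, 920 and 1000 for KO, or 4.37, 3.80 and 4.25 CPM in WT and 7.85, 9.65 and 10.3 CPM in KO. The lowest KO sample was again KO replicate 1, and the groups did not overlap. Its mean of 4.14 ± 0.303 CPM in WT rose to 9.26 ± 1.26 CPM, with a log2FC of 1.16 (SE 0.11, 95% interval 0.92 to 1.40, adjusted p = 2.29e-05).

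*Clcn1* (ENSMUSG00000029862.16, plus strand of chromosome 6, 42286685 to 42315756) gathered 879, 778 and 998 counts in WT, against 1484, 1998 and 2119 for KO. Its CPM values were 9.29, 9.41 and 9.45 in WT, the tightest WT group of the 5 genes, and 15.8, 21.0 and 21.8 in KO. KO replicate 1 stood apart from the other two KO samples but above all WT samples. Group means were 9.39 ± 0.0885 and 19.5 ± 3.23 CPM, and *Clcn1* rose with a log2FC of 1.06 (SE 0.11, 95% interval 0.81 to 1.30, adjusted p = 4.82e-05). Exons of *Fam131b* on the opposite strand overlap exons of *Clcn1*. As the strand setting of the counting is not stated, reads of this pair may be mixed. *Fam131b* had 206 to 250 counts in WT and 204 to 268 in KO.

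*Atp1b1* (ENSMUSG00000026576.12, minus strand of chromosome 1, 164437109 to 164458355) gathered 2758, 2785 and 3191 counts in WT, against 2345, 3029 and 3000 for KO. These correspond to 29.1, 33.7 and 30.2 CPM in WT and 25.0, 31.8 and 30.8 CPM in KO. WT replicate 2 was the highest and KO replicate 1 the lowest of all 6 samples, and the other four lay between 29.1 and 31.8 CPM. The WT mean of 31.0 ± 2.38 CPM and the KO mean of 29.2 ± 3.66 CPM gave a log2FC of -0.086 (SE 0.091, adjusted p = 0.479). The 95% interval of the difference, -0.29 to 0.12, does not reach the 1.5-fold threshold in either direction. Without KO replicate 1 the sign turned, to a log2FC of 0.020. WT replicate 2 was also the sample with the most RNA of the keratinocyte marker list given further on, and the part of other cell types in *Atp1b1* was not tested. *Nme7* overlaps *Atp1b1* exons on the opposite strand and had 1117 to 1432 counts in WT and 1010 to 1048 in KO, without overlap, so some of the *Atp1b1* counts may be its reads.

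*Fxyd1* (ENSMUSG00000036570.14, minus strand of chromosome 7, 31051678 to 31057199) was the most abundant of the 5 genes. Counts were 5622, 4895 and 6657 for WT against 11132, 13687 and 13920 for KO, or 59.4, 59.2 and 63.1 CPM in WT and 119, 144 and 143 CPM in KO. The 3 WT samples lay close together, and KO replicate 1 was again the lowest KO sample. *Fxyd1* averaged 60.6 ± 2.17 CPM in WT and rose to 135 ± 14.2 CPM, with a log2FC of 1.16 (SE 0.071, 95% interval 0.997 to 1.32, adjusted p = 1.65e-06).

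Levels of different genes were compared per kilobase of exon (FPKM, from the TMM-scaled totals and all annotated exon bases of a gene). In WT muscle the order was *Fxyd1* (27.7 ± 0.992 FPKM), *Atp1b1* (10.1 ± 0.774), *Scn4a* (4.55 ± 0.296), *Clcn1* (1.73 ± 0.0163) and *Scn4b* (0.831 ± 0.0607 FPKM, SD, n = 3 each). No neighbors in this order overlapped between samples. In KO muscle the order was the same, with *Fxyd1* at 61.8 ± 6.49, *Atp1b1* at 9.48 ± 1.19, *Scn4a* at 7.64 ± 0.853, *Clcn1* at 3.60 ± 0.594 and *Scn4b* at 1.86 ± 0.253 FPKM. There the ranges of *Atp1b1* and *Scn4a* overlapped (8.12 to 10.3 against 6.68 to 8.31 FPKM), although *Atp1b1* was the higher of the pair in each KO sample. The annotated exon bases of *Fxyd1* together (2186) are more than those of its longest coding transcript (620). With that shorter length its level was 97.7 ± 3.498 in WT and 218 ± 22.9 FPKM in KO, and the order of the genes did not change in WT or in KO.

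The promoter windows of the 5 genes were read for letters that transcription factors of muscle and of other tissues are known to bind. The window was the 250 bases before the RefSeq start (build GRCm38.p6, the assembly of mm10), and all 5 genes were found in the RefSeq table. Both strands were searched for CANNTG, the E-box of the MyoD family, for CAGCTG, which is one form of it, for CATTCC, known from TEAD factors, for the TATA box letters TATAAA, for GGGCGG, known from SP1, and for the MEF2 and CArG box consensus. The *Clcn1* window is shown because it was the only one of the 5 with E-box or MEF2 letters. The *Atp1b1* window is shown as that of the gene that was not called and as the only one with GGGCGG. Capitals mark these matches, which in the *Atp1b1* window read on the opposite strand.

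*Clcn1*, chr6:42286435-42286684, plus strand: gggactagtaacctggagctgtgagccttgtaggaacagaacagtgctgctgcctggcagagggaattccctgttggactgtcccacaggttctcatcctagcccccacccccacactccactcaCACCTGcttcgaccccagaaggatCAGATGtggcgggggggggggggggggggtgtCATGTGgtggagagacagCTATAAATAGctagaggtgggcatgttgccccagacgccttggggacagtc
*Atp1b1*, chr1:164458356-164458605, minus strand: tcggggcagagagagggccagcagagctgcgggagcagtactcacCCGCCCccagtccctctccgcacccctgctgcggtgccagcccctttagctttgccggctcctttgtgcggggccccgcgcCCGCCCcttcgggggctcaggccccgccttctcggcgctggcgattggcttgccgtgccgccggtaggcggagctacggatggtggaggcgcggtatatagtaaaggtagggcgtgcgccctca

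The *Clcn1* window held 3 E-box matches and 1 MEF2 match, which begins 51 bases before the start and overlaps 1 TATAAA match. Of all 32851 RefSeq windows of this length, 66.2% held CANNTG, 4271 windows CAGCTG, 2.92% the MEF2 consensus, 12.4% TATAAA, 12.6% CATTCC, 1.47% the CArG box consensus and 32.7% GGGCGG. The *Scn4a*, *Scn4b* and *Fxyd1* windows, searched over the same 250 bases, held none of these letters. The RefSeq starts used for *Scn4a* and *Fxyd1* lie inside their GENCODE genes, which are on the minus strand. The windows border those starts at 106349391 and 31054854, while the genes extend to 106353288 and 31057199. Windows at other starts were not searched, so the absence holds only for the windows read. Annotated exons cover part of the *Scn4a* and *Scn4b* windows, where the longest stretch outside exons was 64 and 21 bases. The *Atp1b1* window held 2 GGGCGG matches and had the highest GC content of the 5, 70.4%, against 57.2% to 66.0% in the others.

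Among all 14 voltage-gated sodium channel genes, all of which passed the filter on low counts, 6 were called higher in KO and 1 lower. Their median log2FC was 0.44 against -0.0041 over all genes tested, of which 8.31% were called higher and 8.39% lower. When scaled to muscle fiber markers, 0 were called higher and 7 lower. That scaling called 222 of all 22071 genes tested higher and 18774 lower. With TMM scaling, *Scn3a* and *Scn7a* were among the genes called higher, besides *Scn4a* and *Scn4b*. *Scn3a*, known as an embryonic channel of neurons, rose from 4.43 ± 0.398 to 9.16 ± 0.284 CPM (log2FC 1.05).

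*Scn7a*, which encodes a sodium-sensing channel homolog found in glia, among other cells, rose from 2.54 ± 0.174 to 6.62 ± 0.571 CPM (1.38). In the same samples the Schwann cell list of 8 genes had 1 gene called higher and 1 lower. Its summed level was 448 to 461 CPM in WT and 535 to 572 CPM in KO, none of its genes was at 0, and the part of Schwann cells in the *Scn7a* difference was not tested. *Scn10a*, a channel of pain-sensing neurons, was the gene called lower (log2FC -1.28), on 25 to 36 counts in WT and 9 to 15 in KO.

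The beta subunit gene *Scn3b* was the most abundant sodium channel gene of the tissue per length, at 24.5 ± 0.634 FPKM in WT and 32.9 ± 1.49 in KO, and its log2FC of 0.43 was under the 1.5-fold threshold (adjusted p = 5.61e-05). *Scn2b*, which lies close to *Scn4b* on chromosome 9 (45117782 to 45130070), averaged 5.54 ± 0.267 CPM in the WT samples against 4.78 ± 0.220 in the KO samples and was not called (log2FC -0.22, adjusted p = 0.0393).

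**Figure D2:**
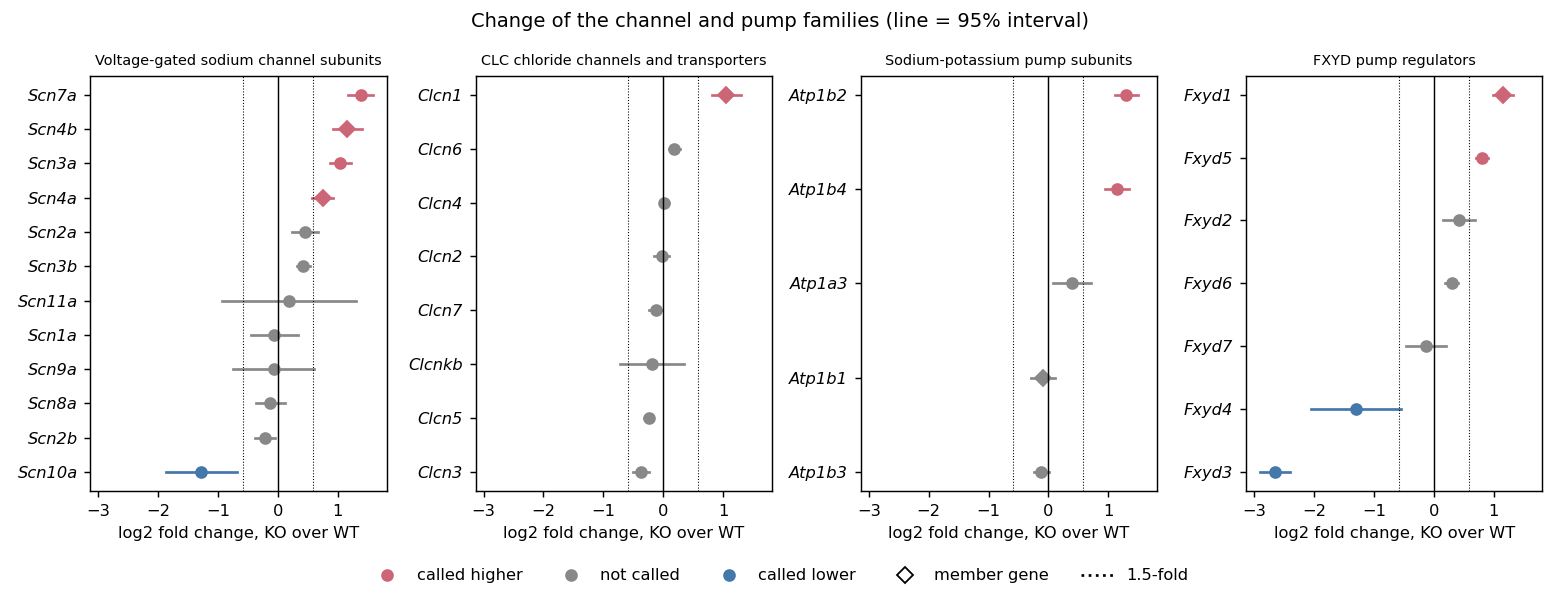
Log2FC (x axis) for tested genes of 4 families (rows), leaving out those not reported here, with 95% intervals as lines. Diamonds are the 5 genes of this report, other genes are circles, red and blue mark genes called higher and lower, gray marks genes that were not called, and dotted lines mark a 1.5-fold change. *Clcn1* (1.06) is the CLC gene called, and among the pump genes *Atp1b2* (1.30) and *Atp1b4* (1.15) lie apart from *Atp1b1* (-0.086) and *Atp1b3* (-0.12).

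*Clcn1* was the only one of 9 CLC genes called, where 16.7% of all genes tested were called. The family had a median log2FC of -0.12 (0 higher and 8 lower when scaled to muscle fiber markers, against 18774 of 22071 genes lower). The other members encode channels and chloride-proton exchangers of many tissues, several of which act in endosomes and lysosomes. *Clcn2*, a widely expressed plasma membrane channel, averaged 15.99 ± 0.697 CPM in the WT and 15.8 ± 0.225 CPM in the KO samples (log2FC -0.022, 95% interval -0.15 to 0.10). *Clcn3* and *Clcn5* were not called either, as their log2FC of -0.37 and -0.24 was within the 1.5-fold threshold (adjusted p = 7.00e-04 and 3.96e-04). Per kilobase of all exon bases, *Clcn5* was the most abundant of the family in WT (9.80 ± 0.0636 FPKM) and in KO (8.27 ± 0.179 FPKM). *Clcn1* stood below it in both. The first rank depends on the length used, 11452 exon bases for *Clcn5* and 8575 for *Clcn4*. With their longest coding transcripts (8390 and 4607 bases), *Clcn4* would rank above *Clcn5*.

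The pump genes split. Of 8 subunit genes 7 were tested. Of these, 3 were called higher, against 8.31% of all genes tested. The other 4 were not called, with *Atp1b1* among them, and *Atp1a4* was too low to be tested. When scaled to muscle fiber markers, 0 pump genes were called higher and 4 lower, against 18774 of 22071 genes lower.

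The beta subunit *Atp1b2* rose from 42.7, 42.2 and 45.9 CPM in the WT samples to 91.6, 115 and 116 CPM in the KO samples (log2FC 1.30, SE 0.084, adjusted p = 2.23e-06). *Atp1b3* averaged 120 ± 7.47 CPM in the WT and 110 ± 5.01 CPM in the KO samples (log2FC -0.12, 95% interval -0.24 to 0.0046). *Atp1b4*, which in placental mammals encodes a muscle protein of the inner nuclear membrane and not a working pump subunit, was the most abundant gene of the family. It rose from 588 ± 48.3 to 1304 ± 141 CPM (log2FC 1.15).

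Shares within a sample do not depend on the scaling between samples. The tests of these shares and ratios were two-sided exact permutation tests, in which 3 samples against 3 cannot give a p below 0.1. Of 15 such values compared, those with no overlap between genotypes had an exact p = 0.1, or 0.115 after Benjamini-Hochberg adjustment, so none of them can pass 0.05.

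Per kilobase of exon, among the pump's beta subunits *Atp1b1*, *Atp1b2* and *Atp1b3*, the *Atp1b1* share was 12.9%, 15.4% and 14.4% in WT and 10.8%, 11.9% and 11.9% in KO, a mean difference of -2.69 percentage points. The *Atp1b2* share was 15.1% ± 1.18 in WT and 32.0% ± 1.92 in KO (SD, n = 3 each), and the *Atp1b3* share 70.7% ± 1.93 and 56.5% ± 2.52. By this length *Atp1b1* and *Atp1b2* were about equal in WT, with overlapping shares, while in each KO sample *Atp1b2* was the higher. The near equality in WT depends on the lengths used, 3081 and 4085 exon bases. Their longest coding transcripts are closer in length, at 2580 and 2842 bases. In CPM, without a length, *Atp1b2* was the higher in WT too (42.2 to 45.9 against 29.1 to 33.7). With *Atp1b4* counted in as well, *Atp1b1* held 4.80% ± 0.655 in WT and 2.41% ± 0.0740 in KO.

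The log2 ratio of *Scn4b* to *Scn4a* per length was -2.45 ± 0.0869 in WT and -2.04 ± 0.0375 in KO, a difference of 0.41. The log2 ratio of *Clcn1* to *Scn4a* was -1.39 ± 0.0887 in WT and -1.09 ± 0.0882 in KO, a difference of 0.30. Both ratios were higher in each KO sample than in any WT sample (exact permutation p = 0.1 for each). The log2 ratio of *Fxyd1* to *Atp1b1* moved from 1.46 ± 0.134 to 2.71 ± 0.0356, a difference of 1.25.

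**Figure D3:**
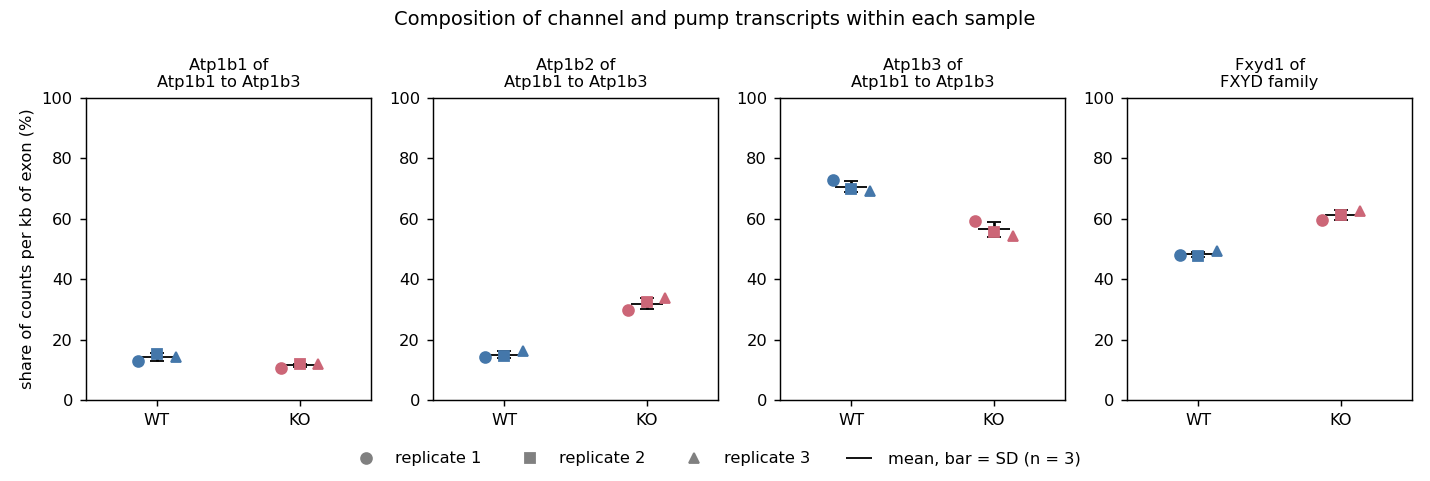
Share of counts per kilobase of exon (y axis, percent, 0 to 100) held by 1 gene among the genes named above each panel, in the WT and KO samples (x axis). Points are single samples and bars the mean and SD (n = 3). The *Atp1b2* share separates most, with means of 15.1% in WT and 32.0% in KO, and the mean *Atp1b1* share is 14.2% in WT and 11.5% in KO.

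All 7 FXYD genes, whose products bind the pump in different tissues, were tested, and 2 were called higher (*Fxyd1* and *Fxyd5*) and 2 lower (*Fxyd3* and *Fxyd4*). Over all genes tested, 8.31% were called higher and 8.39% lower. When scaled to muscle fiber markers, 0 FXYD genes were called higher and 5 lower, against 18774 of 22071 genes lower. *Fxyd1* made up 48.1%, 47.6% and 49.3% of the family per kilobase of exon in WT and 59.5%, 61.4% and 62.7% in KO, the largest share of any FXYD gene in both. *Fxyd5*, *Fxyd7*, *Fxyd1* and *Fxyd3* lie in this order on the minus strand of chromosome 7, between 31032722 and 31076704. *Fxyd5*, which encodes dysadherin, rose from 55.0 ± 0.419 to 96.2 ± 4.70 CPM (log2FC 0.81). *Fxyd7*, known from brain, averaged 1.32 CPM in the WT and 1.21 CPM in the KO samples (log2FC -0.12, adjusted p = 0.539). *Fxyd3*, a gene of epithelia, fell from 15.7 ± 0.903 to 2.48 ± 0.426 CPM (log2FC -2.66).

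The subunits of the epithelial sodium channel, which is unrelated to the voltage-gated family, were lower as well, in 3 of 3 genes. *Scnn1a* fell from 15.7 ± 4.65 to 1.84 ± 0.281 CPM (log2FC -3.09), *Scnn1b* from 2.75 ± 0.337 to 1.18 ± 0.0468 CPM and *Scnn1g* from 1.15 ± 0.344 to 0.231 ± 0.0148 CPM. Beside these genes and *Fxyd3*, all 15 keratinocyte markers were called lower, with a summed level of 18061 to 26858 CPM in WT and 980 to 1096 CPM in KO. *Scnn1a* and the keratinocyte sum were both highest in WT replicate 2, none of the markers was at 0 in a sample, and the part of skin cells in these falls was not tested. Red blood cell markers were also called lower (7 of 7, 3947 to 5191 CPM summed in WT and 548 to 669 in KO), and all 6 adipocyte markers higher (105 to 137 and 340 to 402 CPM). Of the other lists, 1 of 6 smooth muscle markers was called higher, 1 of 6 cartilage markers higher and 3 lower, and the 8 fibroblast and 7 endothelial markers were not called.

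Of the 9 carriers that exchange or cotransport sodium or chloride, 1 was called higher, where 8.31% of all genes tested were. That carrier was *Slc8a3*, the sodium-calcium exchanger known from skeletal muscle, which rose from 15.8 ± 1.15 to 28.6 ± 3.11 CPM (log2FC 0.85). Among the 14 genes listed for anchoring, turnover or splicing of these channels, 3 were called higher, while 10 had an adjusted p under 0.05. Over all genes tested, 8.31% were called higher and 45.0% had an adjusted p under 0.05. When scaled to muscle fiber markers, 0 of the 14 genes were called higher and 11 lower, against 18774 of 22071 genes lower. *Ank3*, the ankyrin that clusters sodium channels, rose from 64.5 ± 1.77 to 102.2 ± 9.07 CPM (0.66), and *Sntb1* from 84.8 ± 3.16 to 131 ± 6.93 CPM (0.63). The splicing regulators *Mbnl1*, whose loss is known to disturb *Clcn1* splicing, and *Celf1* had a log2FC of 0.33 and -0.039 and were not called. Splicing itself cannot be read from counts per gene.

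The tissue label was checked against 16 muscle fiber markers, all present in every sample. Of these, 14 were called higher in KO. The 16 markers had a median log2FC of 1.13 and a range of -0.040 to 1.65, within which *Scn4a* lies (0.75). Their summed level was 21011 to 22685 CPM in WT and 40538 to 50386 CPM in KO. KO replicate 1 had the lowest sum of the KO samples, as it did for *Scn4a*, *Scn4b*, *Clcn1* and *Fxyd1*. *Myh3* (-0.040) and *Ryr1* (0.52) were the markers that were not called. Each of the 5 genes was therefore also set against this list within each sample, as its log2 CPM minus the mean log2 CPM of the 16 markers.

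By this measure the KO mean minus the WT mean was 0.10 for *Scn4b*, -0.011 for *Clcn1* and 0.099 for *Fxyd1*, and *Scn4b* and *Clcn1* values overlapped between the genotypes (exact permutation p = 0.2 and 0.9). *Fxyd1* did not overlap (exact permutation p = 0.1), with WT values of -3.83, -3.72 and -3.75 and KO values of -3.67, -3.66 and -3.66. *Scn4a* was lower relative to the list in each KO sample, at -4.74, -4.69 and -4.63 in WT and -5.01, -5.03 and -4.95 in KO, a difference of -0.31 (exact permutation p = 0.1). *Atp1b1* differed most, from -4.86, -4.53 and -4.81 in WT to -5.92, -5.84 and -5.88 in KO, a difference of -1.15 (exact permutation p = 0.1). When the whole count table was scaled to this list in place of TMM, the median of all genes tested moved to a log2FC of -1.05. *Scn4a* then had a log2FC of -0.31, which is under the 1.5-fold threshold. With this scaling *Scn4a*, *Scn4b*, *Clcn1* and *Fxyd1* were no longer called. *Atp1b1* was then called lower (log2FC -1.15, adjusted p = 2.02e-10).

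**Figure D4:**
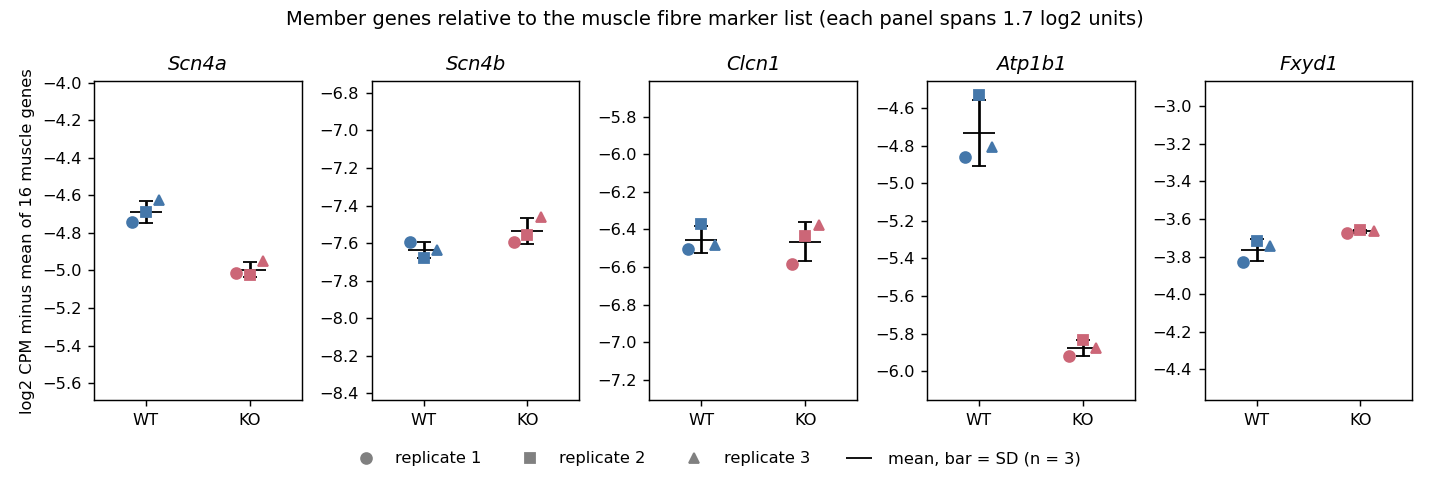
Log2 CPM of each gene minus the mean log2 CPM of 16 muscle fiber markers (y axis, log2 units, the same span in every panel but a different position) in the WT and KO samples (x axis). Points are single samples and bars the mean and SD (n = 3). The KO means of *Scn4b*, *Clcn1* and *Fxyd1* lie within about 0.10 of their WT means, that of *Scn4a* lies 0.31 lower and that of *Atp1b1* 1.15 lower.

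The genes whose profile over the 6 samples was most like that of each gene were named by the root mean square difference of mean-centered log2 CPM, over 12370 genes with a mean of at least 5 CPM. Those closest to *Scn4a* were *St3gal6* (0.025), *Prr32* (0.029) and *Xk* (0.030). Closest to *Scn4b* were *Atp1b4* (0.030), *Slc9a2* (0.037) and *Dtna* (0.040), so that a gene of the pump list lay nearest to a sodium channel subunit. *Clcn1* was nearest to *Hist1h1c* (0.035), *Slc25a12* (0.040) and *4430402I18Rik* (0.043), and *Fxyd1* to *Tpbgl* (0.027), the potassium channel gene *Kcnc1* (0.029) and *Rabep2* (0.029). *Atp1b1* was nearest to *Cst3* (0.026), *Snrpd2* (0.032) and *Sar1b* (0.033), with a log2FC of -0.073, -0.087 and -0.067. Many genes had such profiles, as 63 to 345 others lay within 0.1 of each gene. Among the 5 genes themselves, *Scn4b*, *Clcn1* and *Fxyd1* lay within 0.068 to 0.091 of each other, *Scn4a* lay 0.17 to 0.21 from these, and *Atp1b1* 0.43 to 0.63 from the other four.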

How the data were processed

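Leg muscle RNA-seq of 3 WT and 3 *SYISL* KO samples was analysed, with groups and replicate numbers taken from the sample titles. The authors trimmed 150 bp paired-end reads with Trim Galore 0.6.6, mapped them to mm10 with HISAT2 2.2.1 and counted them with featureCounts 2.0.1, and deposited raw counts per gene without normalization. The annotation, the strand setting and whether pairs were counted are not stated in the sources used here. Counts of the series table and of the sample files were identical. Gene names and positions came from GENCODE M21, which held 55227 of the 56262 identifiers and 99.996% of the counts.

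The main test was edgeR 4.0.16 in R 4.3.3 (filterByExpr, TMM, quasi-likelihood F-test on genotype), with Benjamini-Hochberg adjustment over 22071 genes. DESeq2 1.42.0 and limma-voom 3.58.1 were alternatives, and all were run on simulated data. The simulation held no broad shift in RNA composition between groups, so it does not test the scaling. At these depths 3 counts, the limit that a count of 0 allows, are 0.0293 to 0.0366 CPM, for counting error only. The 5 genes and all lists were chosen with earlier results of these data known. Besides list genes, the 3 genes nearest in profile to each of the 5 were named. WT and KO samples with the same replicate number deviated from their group means with correlations of -0.20, -0.13 and 0.047, so samples were not paired. Some genes of the lists count toward the totals but are not reported here by name.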

Additional observations from a re-analysis of the deposited data

How the results depend on the processing

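*Scn4a*, *Scn4b*, *Clcn1* and *Fxyd1* kept their direction and their call under 15 alternatives each, with log2 fold changes of 0.68 to 0.84, 1.09 to 1.27, 0.98 to 1.19 and 1.09 to 1.25. The alternatives were RLE, upper-quartile and library-size scaling, DESeq2, limma-voom, both filters, a replicate block, the sample files and leaving out each sample. As the sample files hold the same counts, that setting only repeats the main fit. *Atp1b1* was called in none of the 15 alternatives (-0.16 to 0.020, and -0.15 to 0.020 over the fits without 1 sample) and changed sign without KO replicate 1 (0.020). Scaling to the muscle fiber list gave *Scn4a* -0.31, *Scn4b* 0.10, *Clcn1* -0.0081, *Atp1b1* -1.15 (called) and *Fxyd1* 0.099. That scaling called 222 genes higher and 18774 lower over all genes, and in the lists 0 higher and 7 lower sodium channel genes, 0 and 8 CLC genes, 0 and 4 pump genes, 0 and 5 FXYD genes, 0 and 8 carriers, and 0 and 11 anchoring, turnover and splicing genes.

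Without a fold threshold, 4838 genes were higher and 5098 lower. Of the 10 sodium channel genes then called, 2 were lower, and of the 6 FXYD genes 4 were higher. In the other lists 2 CLC genes were higher and 3 lower, 5 carriers higher and 1 lower, and 9 anchoring genes higher and 1 lower. A 2-fold threshold, which *Scn4a* (1.68-fold) does not reach, left 774 genes higher, with 4 sodium channel genes, 1 FXYD gene, 0 carriers and 1 anchoring gene among them. Library-size scaling did not call *Sntb1* and called 1 CLC gene lower, as did leaving out WT replicate 1 or KO replicate 1, and requiring 10 counts in every sample removed *Scn10a* and so left 0 sodium channel genes lower. Over the fits without 1 sample, CLC genes called lower ranged from 0 to 1 and FXYD genes called lower from 1 to 2, *Fxyd4* being lost without KO replicate 3. The replicate block, added although the numbers do not pair the samples, called 1744 genes higher and 1777 lower and changed no call among the 5 genes. The cause of these changes was not tested. The 7 shares and ratios recomputed kept their direction with raw counts, with the longest coding transcript as length (chosen after seeing the data) and without each sample, where their tests cannot pass 0.05. Counts of 9 to 36, as for *Scn10a*, limit the precision of the rarest genes.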
